A study of Mus musculus with 2 samples.

Results

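The genes described here are the MHC class II antigen presentation genes, 10 of the 25909 genes in a single-cell mRNA count matrix of mouse liver myeloid cells. They were taken by name, as genes of the class II pathway, with earlier results of these data known. H2-Aa and H2-Ab1 encode the chains of the class II molecule H2-A, and H2-Eb1 encodes the beta chain of H2-E. Cd74 encodes the invariant chain, H2-DMa, H2-DMb1 and H2-DMb2 the peptide exchange factor H2-DM, H2-Oa and H2-Ob its inhibitor H2-O, and Ciita the class II transactivator. All 10 were present in the matrix.

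The cells were CD45.2+Lin-CD11b+ liver cells of 4 male mice, sorted, tagged with a hashtag for each mouse, pooled and sequenced as 1 library, with 1 mouse per group. An Egr2fl/fl mouse and a Lyz2Cre/+.Egr2fl/fl mouse were kept on normal diet (ND). Another mouse of each genotype was fed a high-fat diet without choline and with defined amino acids (CDA-HFD), which leads to steatohepatitis, for 7 weeks. The methods give an age of 6 to 12 weeks for mice put on that diet. Both Egr2 alleles carried loxP sites in all 4 mice, controls included. Cre stood under the control of Lyz2, a gene active in neutrophils, monocytes and macrophages and in only part of the dendritic cells. Throughout, values of the 4 mice are given in the order ND-fed Egr2fl/fl, ND-fed Lyz2Cre/+.Egr2fl/fl, CDA-HFD-fed Egr2fl/fl and CDA-HFD-fed Lyz2Cre/+.Egr2fl/fl. With 1 mouse per group, a difference between individual mice and one of diet or genotype cannot be told apart, and no test between groups was possible. Levels are counts per 1000000 counts of a group of cells (CPM), and every 95% interval is for counting error only.

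Class II molecules carry peptides from the endocytic pathway to the cell surface, where CD4+ T cells read them. The invariant chain fills the groove of a new class II molecule and is cut down in the endosome, H2-DM then exchanges its last fragment for peptide, and H2-O holds H2-DM back. Dendritic cells have high class II levels and are the main cells that prime CD4+ T cells. Kupffer cells, the resident macrophages of the liver sinusoid, have less, and circulating monocytes have little. Transcription of class II genes depends on Ciita, which binds no DNA itself but docks on RFX, CREB and NF-Y bound at the S, X and Y boxes of their promoters. In C57BL/6 mice the H2-Ea gene is not functional, so H2-E beta chain mRNA is made without an H2-E molecule.

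Of the 10 genes, 8 lie on chromosome 17 in the major histocompatibility complex, between chr17:34092340 and chr17:34316674 (GRCm38), from H2-Oa to H2-Eb1. Cd74 lies outside it, as does Ciita, on chr16:10480059-10528418. The promoter table (RefSeq, GRCm38.p6) held 6 of these genes with the Y box letters TGATTGG on the gene's strand, each with its first base between positions -92 and -45 from the transcription start. The stretches around them are shown because these genes share Ciita as coactivator, through factors bound at such letters. Capitals mark TGATTGG and, where present, X box letters, AAC and ATGAT with any 2 bases between them. Both were chosen after these promoters had been read.
H2-Aa, chr17:34287847-34287918, minus strand: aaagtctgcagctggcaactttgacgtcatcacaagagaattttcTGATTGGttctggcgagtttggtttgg
H2-Eb1, chr17:34305761-34305832, plus strand: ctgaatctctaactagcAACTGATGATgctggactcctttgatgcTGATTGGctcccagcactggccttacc
H2-DMb1, chr17:34153083-34153154, plus strand: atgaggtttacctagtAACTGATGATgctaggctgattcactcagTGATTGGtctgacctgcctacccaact
H2-DMb2, chr17:34145112-34145183, plus strand: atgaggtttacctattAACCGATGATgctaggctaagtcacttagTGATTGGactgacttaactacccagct
H2-Oa, chr17:34092289-34092360, plus strand: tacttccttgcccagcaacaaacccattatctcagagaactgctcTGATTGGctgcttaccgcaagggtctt
H2-Ob, chr17:34238801-34238872, plus strand: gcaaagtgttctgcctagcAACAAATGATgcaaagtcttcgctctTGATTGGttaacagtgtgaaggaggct
On either strand, TGATTGG occurs in 2568 of 32851 promoter windows of 300 bases (7.82%) and the X box letters in 149 (0.454%). The X box letters upstream of TGATTGG on the same strand, 10 to 40 bases apart, occur in 4 windows, and these belong to H2-Eb1, H2-DMb1, H2-DMb2 and H2-Ob. A match is a description of the letters and not evidence of binding. The 2 windows of H2-DMa held neither set of letters. H2-Ab1, Cd74 and Ciita are named only.

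The table held 15394 cells of the 4 mice after 1392 barcodes named doublets by the authors were left out (8.29%), and 15384 passed the mitochondrial limit of 25%. Mice gave 1590 to 6186 cells and 27840300 to 90124521 counts, with a median of 13168 to 16459 counts per cell. Cells were assigned to a class by counts of marker genes, none of them a class II gene. In all, 9968 cells (64.8%) fell into 1 gate, 4897 (31.8%) into none and 519 into several. Egr2, the floxed gene, was at 13.3, 5.85, 49.4 and 18.2 CPM in the 4 mice. In macrophages it was at 45.4 and 3.28 CPM on ND and at 53.9 and 10.9 CPM on CDA-HFD. In Cd209a+ dendritic cells it was at 35.5 and 32.1 CPM on ND and at 62.7 and 35.6 CPM on CDA-HFD. Egr2 was thus lower in macrophages of both Lyz2Cre/+.Egr2fl/fl mice, while on ND it was nearly level in these dendritic cells. Counts over the deleted part alone were not analysed here.

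The gates were set by counts of their defining markers, so high levels of these markers are fixed by the gating and are no check of it. Over the 4 mice, Cd209a was at 1152 CPM in Cd209a+ dendritic cells (113, 97, 479 and 479 cells) and at 23.0 CPM or less in the other gates. Xcr1+ dendritic cells (32, 11, 19 and 43 cells) and Ccr7+ dendritic cells (19, 12, 147 and 107 cells) correspond to the cross-presenting and the migratory type. Kupffer cells (725, 789, 6 and 12 cells) had Clec4f, the Kupffer cell lectin, at 7606 CPM against 148 CPM in macrophages (102, 104, 1114 and 1245 cells). Ly6Chi monocytes (108, 72, 862 and 943 cells), Ly6Clo monocytes (107, 61, 191 and 229 cells) and neutrophils (108, 192, 780 and 660 cells) completed the set. Groups of under 50 cells are given as levels only, so Kupffer cells could not be compared between diets. Within a mouse, Kupffer cells were 42.1% and 49.6% of the cells on ND and 0.102% and 0.194% on CDA-HFD.

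The class II chain genes were highest in Cd209a+ dendritic cells. H2-Ab1 was at 14404, 15240, 15679 and 15145 CPM in them, at 11418 to 13212 CPM in Xcr1+ dendritic cells and at 2817 to 10537 CPM in Ccr7+ dendritic cells. In macrophages it was at 11889, 9031, 6014 and 4875 CPM, and in Kupffer cells of the ND-fed mice at 5673 and 2708 CPM. Macrophages were thus below Cd209a+ dendritic cells in all 4 mice, while their range overlapped those of the Xcr1+ and Ccr7+ dendritic cells and of the Kupffer cells. Ly6Chi monocytes were at 1526, 1013, 870 and 845 CPM and Ly6Clo monocytes at 459, 702, 1480 and 702 CPM. The ranges of the 2 monocyte gates overlapped each other and that of neutrophils (108 to 999.8 CPM). H2-Aa and H2-Eb1 were at 13168 to 14349 CPM and 12690 to 14063 CPM in Cd209a+ dendritic cells, the highest gate for both. The order of the next gates differed between genes and mice: in the ND-fed Egr2fl/fl mouse H2-Aa was at 9972 CPM in Xcr1+ dendritic cells and 11564 CPM in macrophages, while H2-Ab1 was at 12573 and 11889 CPM. Cd74 had 21695 to 23514 CPM in these cells, 9298 to 20482 CPM in macrophages, 11034 and 5603 CPM in Kupffer cells on ND, and 1705 to 3042 CPM in the monocyte gates.

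**Figure D1:**
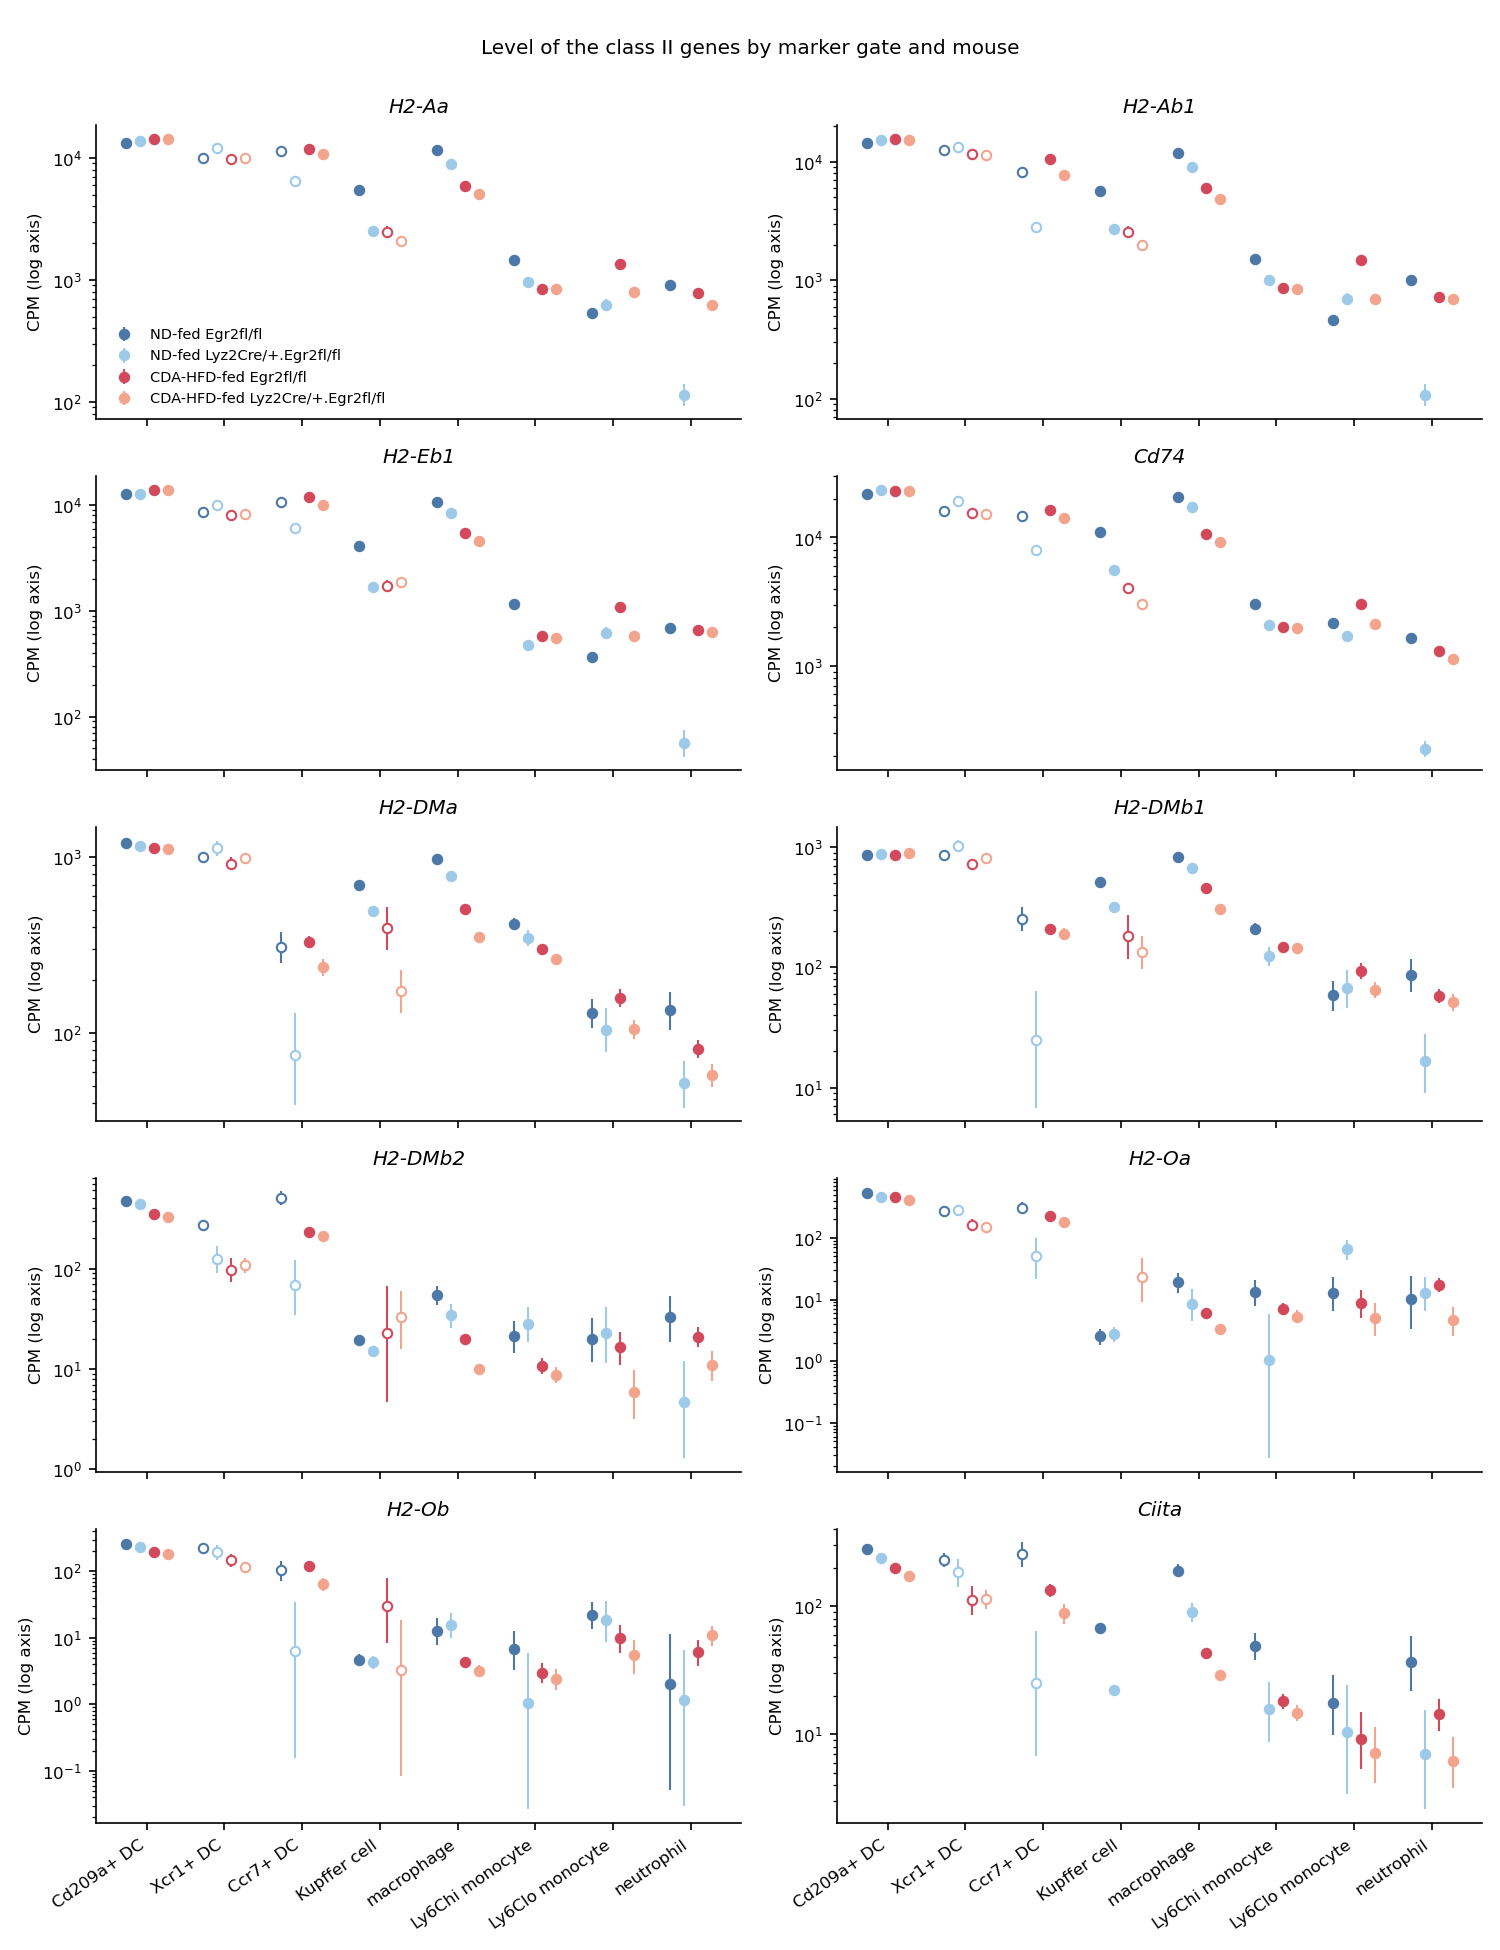
Level of each of the 10 class II genes (CPM, log axis) by marker gate and mouse, with 95% counting intervals. Open circles are groups of under 50 cells and groups at 0 are not drawn. H2-Ab1 lies at 14404 to 15679 CPM in Cd209a+ dendritic cells of all 4 mice and spreads from 4875 to 11889 CPM in macrophages.

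For 9 of the 10 genes the lowest Cd209a+ dendritic cell value of the 4 mice was above the highest value of any Kupffer cell, macrophage or monocyte group. The exception was Ciita, with 282, 238, 200 and 173 CPM in Cd209a+ dendritic cells and 190 CPM in macrophages of the ND-fed Egr2fl/fl mouse. Against macrophages and Kupffer cells the gap was widest for the H2-O genes, whose product restrains H2-DM. Monocyte groups came nearer, with up to 64.9 CPM of H2-Oa and 22.3 CPM of H2-Ob. H2-Oa was at 541, 463, 461 and 413 CPM in Cd209a+ dendritic cells, at 19.2, 8.53, 5.998 and 3.29 CPM in macrophages, and at 2.52 and 2.74 CPM in Kupffer cells on ND. H2-Ob was at 254, 228, 196 and 184 CPM in the dendritic cells and at 3.21 to 15.7 CPM in macrophages. After each cell was thinned to 4000 counts, H2-Oa had a count in 63.3% to 74.3% of Cd209a+ dendritic cells, in 1.45% to 3.96% of macrophages and in 1.64% to 5.13% of neutrophils, which should lack it. Unthinned, the shares were 80.0% to 90.7%, 4.34% to 8.65% and 1.67% to 2.31%, at median depths of 15782 to 17496, 11736.5 to 21820 and 3832 to 4151.5 counts. At equal depth the H2-Oa share of macrophages lay below that of neutrophils in 3 mice and just above it in the ND-fed Lyz2Cre/+.Egr2fl/fl mouse (3.96% and 3.16%), and is read as background. For H2-Ob the thinned shares were 4.12%, 7.92%, 1.44% and 1.21% of macrophages and 0%, 0%, 1.61% and 2.19% of neutrophils. The neutrophils deep enough were few on ND, 39 and 95 cells, where a count of 0 allows a share of up to 7.69% and 3.16%, so H2-Ob was above background only in macrophages of the ND-fed Lyz2Cre/+.Egr2fl/fl mouse. H2-DMa, by contrast, was at 1119 to 1206 CPM in Cd209a+ dendritic cells and at 350 to 982 CPM in macrophages.

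The balance of H2-O and H2-DM separated dendritic cells from macrophages, Kupffer cells on ND and Ly6Chi monocytes. In Cd209a+ dendritic cells there were 38.3, 34.1, 32.9 and 29.7 counts of H2-Oa and H2-Ob per 100 counts of H2-DMa and H2-DMb1. In Ccr7+ dendritic cells of the CDA-HFD-fed mice there were 64.8 (95% interval 59.0 to 71.1) and 58.1 (50.7 to 66.4). Macrophages had 1.76, 1.67, 1.07 and 0.992, and Kupffer cells on ND 0.593 and 0.867. Xcr1+ dendritic cells lay at 15.0 to 26.3 and Ly6Chi monocytes at 0.442 to 3.2. No dendritic cell group overlapped a group of these 3 other gates. Ly6Clo monocytes had 6.16 to 48.8 from 25 to 40 counts of H2-O, and H2-Oa had a count in 0.881% to 5.08% of their thinned cells, at most the highest share of neutrophils (5.13%). Neutrophils, with 6 to 85 counts of H2-O, had 5.56, 20.7, 16.8 and 14.3, so that neither these cells nor Ly6Clo monocytes were apart from the dendritic cells.

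H2-DM is built from H2-DMa with H2-DMb1 or H2-DMb2, which are neighbouring, near-identical genes. Their transcripts share 27.2% (H2-DMb1) and 21.2% (H2-DMb2) of their 50-base runs, so reads may be split between them with error. H2-DMb2 had 54.1, 49.97, 40.5 and 36.8 counts per 100 of H2-DMb1 in Cd209a+ dendritic cells. In Ccr7+ dendritic cells of the CDA-HFD-fed mice it had 112 (97.9 to 127) and 111 (94.0 to 132), and in the 19 of the ND-fed Egr2fl/fl mouse 200 (152 to 264, from 162 and 81 counts). In macrophages it had 6.54, 5.08, 4.35 and 3.29 and in Kupffer cells on ND 3.78 and 4.71. The beta chain genes were thus about even in Ccr7+ dendritic cells on CDA-HFD, while H2-DMb1 made up nearly all counts in the macrophage gates. H2-DMa and H2-DMb1 were lower in Ccr7+ than in Cd209a+ dendritic cells, with 331 and 236 CPM against 1134 and 1119 CPM for H2-DMa on CDA-HFD.

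**Figure D2:**
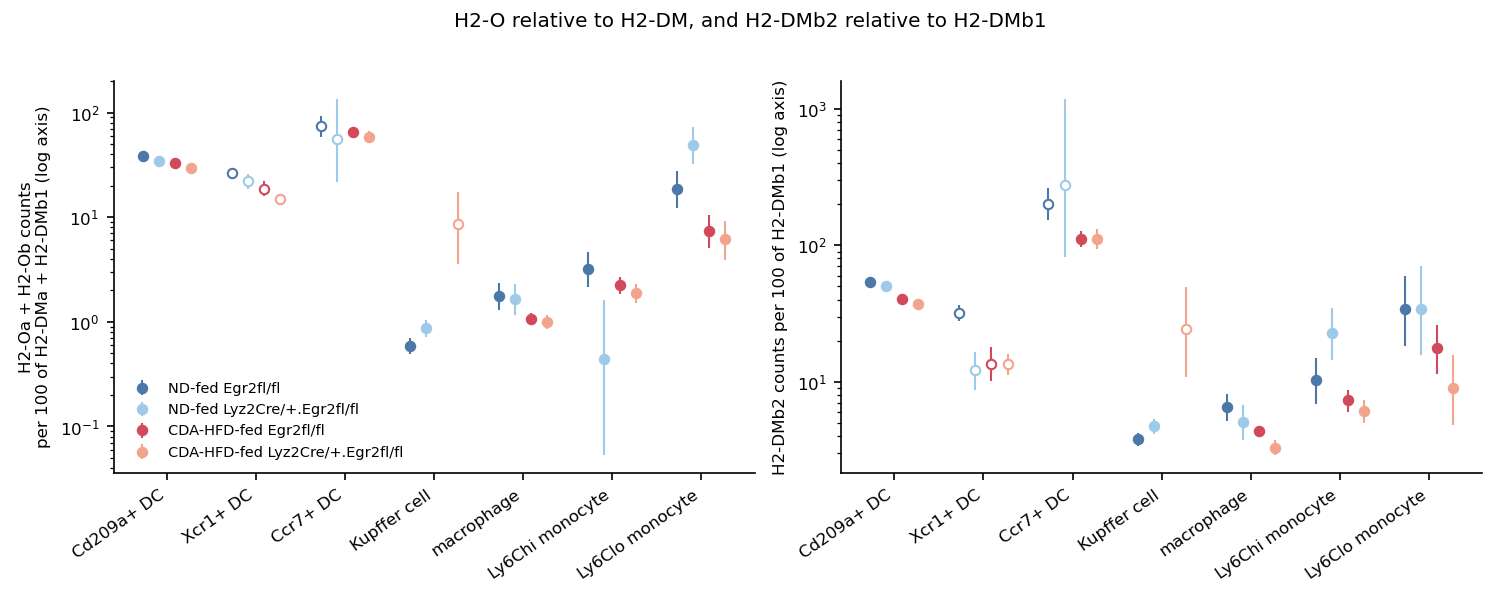
Counts of H2-Oa and H2-Ob per 100 counts of H2-DMa and H2-DMb1 (left) and of H2-DMb2 per 100 of H2-DMb1 (right), by gate and mouse on a log axis with 95% counting intervals. Open circles are groups of 10 to 49 cells and smaller groups are not drawn. Cd209a+ dendritic cells lie at 29.7 to 38.3 on the left and macrophages at 0.992 to 1.76.

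The gates that held most of the class II mRNA of a mouse differed between diets. Kupffer cells held 46.9% and 41.2% of the H2-Ab1 counts of the ND-fed mice and 0.0583% and 0.119% of those of the CDA-HFD-fed mice. Cd209a+ dendritic cells held 13.8%, 22.2%, 22.0% and 23.7%, and macrophages 8.42%, 11.5%, 27.8% and 25.7%. Cells in no gate held 17.8%, 15.2%, 38.2% and 38.0%. Over all cells of a mouse the H2-Ab1 level was 6900, 4303, 6782 and 5689 CPM, so the ND-fed Lyz2Cre/+.Egr2fl/fl mouse was lowest, while the diet pair of Egr2fl/fl mice differed little. These shares follow the numbers of cells of a mouse in each gate as well as the level per cell. For CDA-HFD, 9000 cells were loaded per mouse, against 3000 for ND, which does not enter a share within a mouse.

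Kupffer cells of the ND-fed mice showed lower class II genes in the Lyz2Cre/+.Egr2fl/fl mouse. H2-Ab1 was at 5673 CPM (5639 to 5708) in the Egr2fl/fl mouse and 2708 CPM (2684 to 2731) in the Lyz2Cre/+.Egr2fl/fl mouse, a ratio of 0.477 (0.472 to 0.482). H2-Aa went from 5491 to 2494 CPM, a ratio of 0.454, and H2-Eb1 from 4143 to 1680 CPM, a ratio of 0.406. Ciita, the coactivator of all of them, was at 67.2 and 22.2 CPM, a ratio of 0.331 (0.295 to 0.370). These were 4 of 9 class II genes with at least 100 counts over both mice that were past 2-fold lower, where 0.496% of 10880 genes were 2-fold lower and 1.28% were past 2-fold in either direction.

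The other class II genes in Kupffer cells fell short of 2-fold. Cd74 was at 11034 and 5603 CPM, a ratio of 0.508 (0.504 to 0.512). H2-DMa was at 694 and 496 CPM (0.715), H2-DMb1 at 516 and 320 CPM (0.621) and H2-DMb2 at 19.5 and 15.1 CPM (0.774). The H2-DM genes thus differed less than the chain genes, and their intervals did not reach those of H2-Ab1. H2-Ob was at 4.66 and 4.33 CPM (0.931, 0.677 to 1.28), and H2-Oa had 46 and 50 counts, too few for a ratio. Egr2 was at 4.82 and 1.04 CPM in these cells. All 9 ratios were below 1, where the median of all genes was 1.04. Reads over H2-DMa may include those of the overlapping Brd2 on the other strand, since strand use in counting is not given in the sources used here.

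The difference in Kupffer cells ran through the population. The median Kupffer cell had 5446 CPM of H2-Ab1 in the Egr2fl/fl mouse and 2091 CPM in the Lyz2Cre/+.Egr2fl/fl mouse. In the latter, 85.9% of cells were below the Egr2fl/fl median, and in the former 91.2% were above the Lyz2Cre/+.Egr2fl/fl median. At the 10th percentile the cells had 2264 and 345 CPM, and at the 90th 10043 and 5998 CPM. The lowest H2-Ab1 value above 0 was 8 counts, and the Lyz2Cre/+.Egr2fl/fl cells were at 0 up to the 8th percentile. The low end of that mouse thus lies at this floor and is not read as a measured level. For H2-DMa, 69.1% of Lyz2Cre/+.Egr2fl/fl cells were below the Egr2fl/fl median of 634 CPM. Ctss, the cathepsin that cuts the invariant chain, served as a gene of the same pathway outside the set, and its median cell was at 5058 and 4887 CPM. A Ciita count was found in 49.5% and 21.7% of Kupffer cells (19.0% and 7.17% after thinning to 4000 counts), against 3.70% and 2.08% of neutrophils of the same mice (7.69% and 1.05% thinned). Median depth was 25713 and 23556 counts in Kupffer cells and 3832 and 3965.5 in neutrophils.

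**Figure D3:**
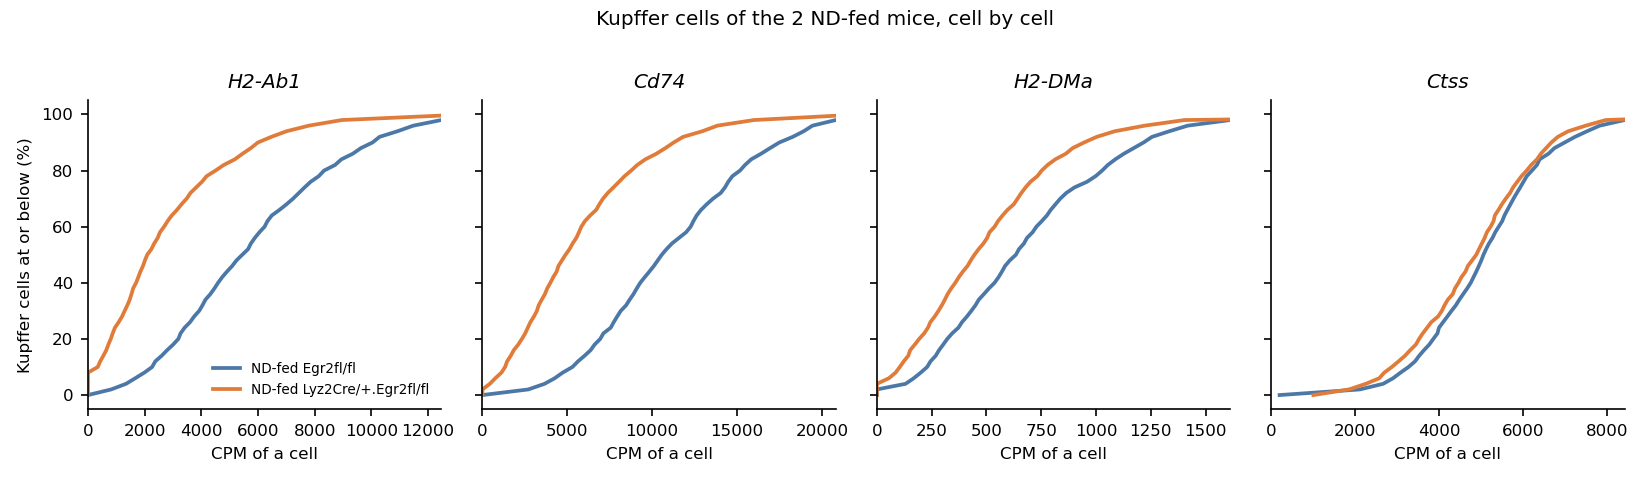
Cumulative share of Kupffer cells (%) at or below a given CPM of H2-Ab1, Cd74, H2-DMa and Ctss in the ND-fed Egr2fl/fl mouse and the ND-fed Lyz2Cre/+.Egr2fl/fl mouse. The curves of H2-Ab1 cross 50% at 5446 and 2091 CPM, and those of Ctss at 5058 and 4887 CPM.

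Genes that work beside class II stayed within 2-fold in Kupffer cells, as did most genes. Of all 10880 genes 1.28% were past 2-fold, so a count of 0 in a short list is near that share. In the class I presentation list 0 of 11 genes were past 2-fold, with a median ratio of 0.869, from Tap1 (0.729) to Canx (1.05). Among genes that process antigen and the invariant chain 0 of 11 were past 2-fold, with a median of 1.03, from Ctsc (0.835) to Lgmn (1.16). Marchf1 and Marchf8, ligases that send class II from the surface to the lysosome, had ratios of 0.998 and 1.06. Among regulators of class II transcription 0 of 14 were past 2-fold, with a median of 0.878. Irf1, an interferon-induced factor that acts on the Ciita promoter, had a ratio of 0.580, and the highest was Nfyc (1.11), a subunit of the Y box factor NF-Y. In the costimulation list 0 of 6 were past 2-fold, from Cd274 (0.550) to Cd86 (1.18). Summed markers of hepatocytes (4 of 5 in the matrix) were at 45.6 CPM in the Egr2fl/fl and 113.6 CPM in the Lyz2Cre/+.Egr2fl/fl Kupffer cells. Summed endothelial markers (6 genes) were at 307 and 368 CPM, nearly all of it Cdh5 (313 CPM over the 4 mice), while each of the other 5 was at 9.75 CPM or less. The part of these markers in the result was not tested. Without the 48 and 52 cells that also carried a marker of another class, the H2-Ab1 ratio was 0.486.

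Macrophages of CDA-HFD-fed mice had lower class II genes than those of ND-fed mice, in both genotypes. H2-Ab1 was at 11889 and 6014 CPM in the ND-fed and CDA-HFD-fed Egr2fl/fl mice (ratio 0.506, 0.498 to 0.514) and at 9031 and 4875 CPM in the Lyz2Cre/+.Egr2fl/fl mice (0.540, 0.530 to 0.549). H2-Aa, H2-Eb1 and Cd74 had ratios of 0.504 to 0.522 and of 0.542 to 0.563. The chain genes and Cd74 therefore came close to a 2-fold difference without passing it. Ciita was at 190, 90.5, 43.3 and 29.2 CPM, with ratios of 0.228 (0.201 to 0.260) and 0.323 (0.269 to 0.389). In the Egr2fl/fl pair 4 of 10 genes were past 2-fold, all lower (H2-DMb2, H2-Oa, H2-Ob and Ciita), where 8% of 10171 genes were 2-fold lower and 14.6% past 2-fold. In the Lyz2Cre/+.Egr2fl/fl pair 6 of 10 were (these 4 with H2-DMa at 0.447 and H2-DMb1 at 0.455), where 7.87% of 10259 genes were 2-fold lower and 14.5% past 2-fold. Of these, H2-Oa was at background in macrophages, and H2-Ob was above it in 1 of the 4 mice, as given above. With stricter gates the H2-Oa ratio in the Lyz2Cre/+.Egr2fl/fl pair turned to 1.28. H2-Oa and H2-Ob had 30 and 20 counts in the ND-fed Egr2fl/fl macrophages and 13 and 24 in the ND-fed Lyz2Cre/+.Egr2fl/fl macrophages.

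Cell by cell, 88.4% of macrophages of the CDA-HFD-fed Egr2fl/fl mouse were below the H2-Ab1 median of the ND-fed Egr2fl/fl mouse (12859 CPM), and 77.2% in the Lyz2Cre/+.Egr2fl/fl pair. Other markers moved with diet in this gate, and their part in the result was not tested. Summed markers of dendritic cells (18 genes) were at 294, 255, 145 and 149 CPM in macrophages, and those of Kupffer cells (12 genes) at 3526, 7291, 1216 and 1885 CPM. Cycling markers (4 genes) were at 123, 133, 46.5 and 75.5 CPM, endothelial markers (6 genes) at 33.9, 82.0, 16.2 and 27.4 CPM, and T and NK cell markers (8 genes) at 1.28, 66.3, 7.68 and 2.36 CPM. The defining markers Flt3 and Clec4f were not at 0 in the gate, with 1.92 and 148 CPM. When cells with markers of a further class were left out (28, 39, 149 and 194 cells), the H2-Ab1 ratio was 0.467 in both pairs, and 9 of 10 genes were past 2-fold lower in the Egr2fl/fl pair. The share of all genes past 2-fold was not computed without these cells.

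Macrophages were also split by Cd5l, a secreted protein of Kupffer cells and their replacements, and Spp1, osteopontin, a marker of lipid-associated macrophages. This split was chosen after values had been seen, and it rests on the presence of any count, which a deeper cell shows more readily. Median depth was 12116, 11097.5, 31883 and 28605.5 counts with Cd5l and 13046.5, 11565, 19976.5 and 17540.5 with neither gene. Macrophages with a Cd5l count (21, 28, 116 and 184 cells) had 7590, 4855, 3851 and 2323 CPM of H2-Ab1. Those with Spp1 and no Cd5l had 5018 and 4139 CPM on CDA-HFD (422 and 349 cells), and only 5 and 6 such cells were seen on ND. Those with neither (76, 70, 576 and 712 cells) had 13324, 10705, 7601 and 6369 CPM. In all 4 mice the macrophages with neither gene were above those with Cd5l. Among them the CDA-HFD to ND ratio was 0.570 in the Egr2fl/fl and 0.595 in the Lyz2Cre/+.Egr2fl/fl pair, and 0.274 and 0.336 for Ciita. The diet difference was thus also seen in macrophages without Cd5l and Spp1 counts. Both H2-Ab1 ratios lay within the ranges over other processing choices (0.467 to 0.573 and 0.467 to 0.615). No difference in size from the whole gate is therefore read, and the part of these cell types was not tested.

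Between genotypes macrophages differed less. On ND the H2-Ab1 ratio of Lyz2Cre/+.Egr2fl/fl to Egr2fl/fl was 0.760 (0.743 to 0.777), and 1 of 8 genes was past 2-fold, Ciita with 0.477 (0.387 to 0.586), where 3.54% of genes were. This call was lost with the mean of per-cell CPM (0.506) and without cells with markers of a further class (0.507). On CDA-HFD the H2-Ab1 ratio was 0.811 (0.805 to 0.817), and 0 of 10 were past 2-fold, where 1.37% of genes were. On CDA-HFD all 10 ratios were below 1, from 0.506 (H2-DMb2) to 0.870 (Cd74), with a median of 0.722 against 1.03 for all genes. H2-Oa and H2-Ob were at background in these mice, and without cells with markers of a further class the H2-Ob ratio was 1.28. H2-DMa (506 and 350 CPM, 0.692) and H2-DMb1 (456 and 305 CPM, 0.669) were lower relative to the chain genes. On ND the intervals of H2-DMa (0.797, 0.739 to 0.860) and H2-DMb1 (0.809, 0.744 to 0.878) held the ratios of H2-Ab1, H2-Aa (0.770), H2-Eb1 (0.782) and Cd74 (0.837), so no order was seen there. Kupffer markers, at 3526 and 7291 CPM on ND and at 1216 and 1885 CPM on CDA-HFD, were higher in the Lyz2Cre/+.Egr2fl/fl macrophages. So were, on ND, summed T and NK cell markers (1.28 and 66.3 CPM) and endothelial markers (33.9 and 82.0 CPM), and the part of these markers in the result was not tested.

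In macrophages other genes of the pathway differed between diets in both directions. Of all genes, 14.6% were past 2-fold in the Egr2fl/fl pair and 14.5% in the Lyz2Cre/+.Egr2fl/fl pair, with 8% and 7.87% lower. A call of 1 gene in a list is near these shares. Of 11 antigen processing genes, 1 was past 2-fold lower and 2 higher in the Egr2fl/fl pair, and 0 lower and 2 higher in the Lyz2Cre/+.Egr2fl/fl pair, with medians of 1.14 and 1.20, where all genes had 0.953 and 0.938. Ctsd, an endosomal protease, was at 943 and 3405 CPM in the Egr2fl/fl pair (ratio 3.61) and at 960 and 2941 CPM in the other (3.07). The lowest of the list was Ctsc, a lysosomal peptidase, with 0.398 and 0.615. Class I genes had medians of 0.752 and 0.855. In the Egr2fl/fl pair 3 of 11 were past 2-fold lower, Tap2 (0.394), Psmb9 (0.398) and Tap1 (0.441), which make or carry peptides for class I, and the highest was Canx (1.18). In the other pair 0 of 11 were, from Tap2 (0.570) to Canx (1.22). Of 13 regulators of class II transcription 4 were past 2-fold lower in the Egr2fl/fl pair and 1 in the other, with medians of 0.619 and 0.760, and none was past 2-fold higher. Among them was Irf1 in both pairs, with 190, 152, 80.3 and 59.1 CPM in the 4 mice. The highest regulators were Zxdc (1.66) and Rfxank (1.26). In the costimulation list 1 of 7 and 1 of 6 were past 2-fold lower, Icosl (0.397 and 0.380), a ligand for T cells, and the highest was Cd83 (1.53 and 1.58). Marchf1 (0.685 and 0.527) and Marchf8 (0.727 and 1.73) stayed within 2-fold.

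**Figure D4:**
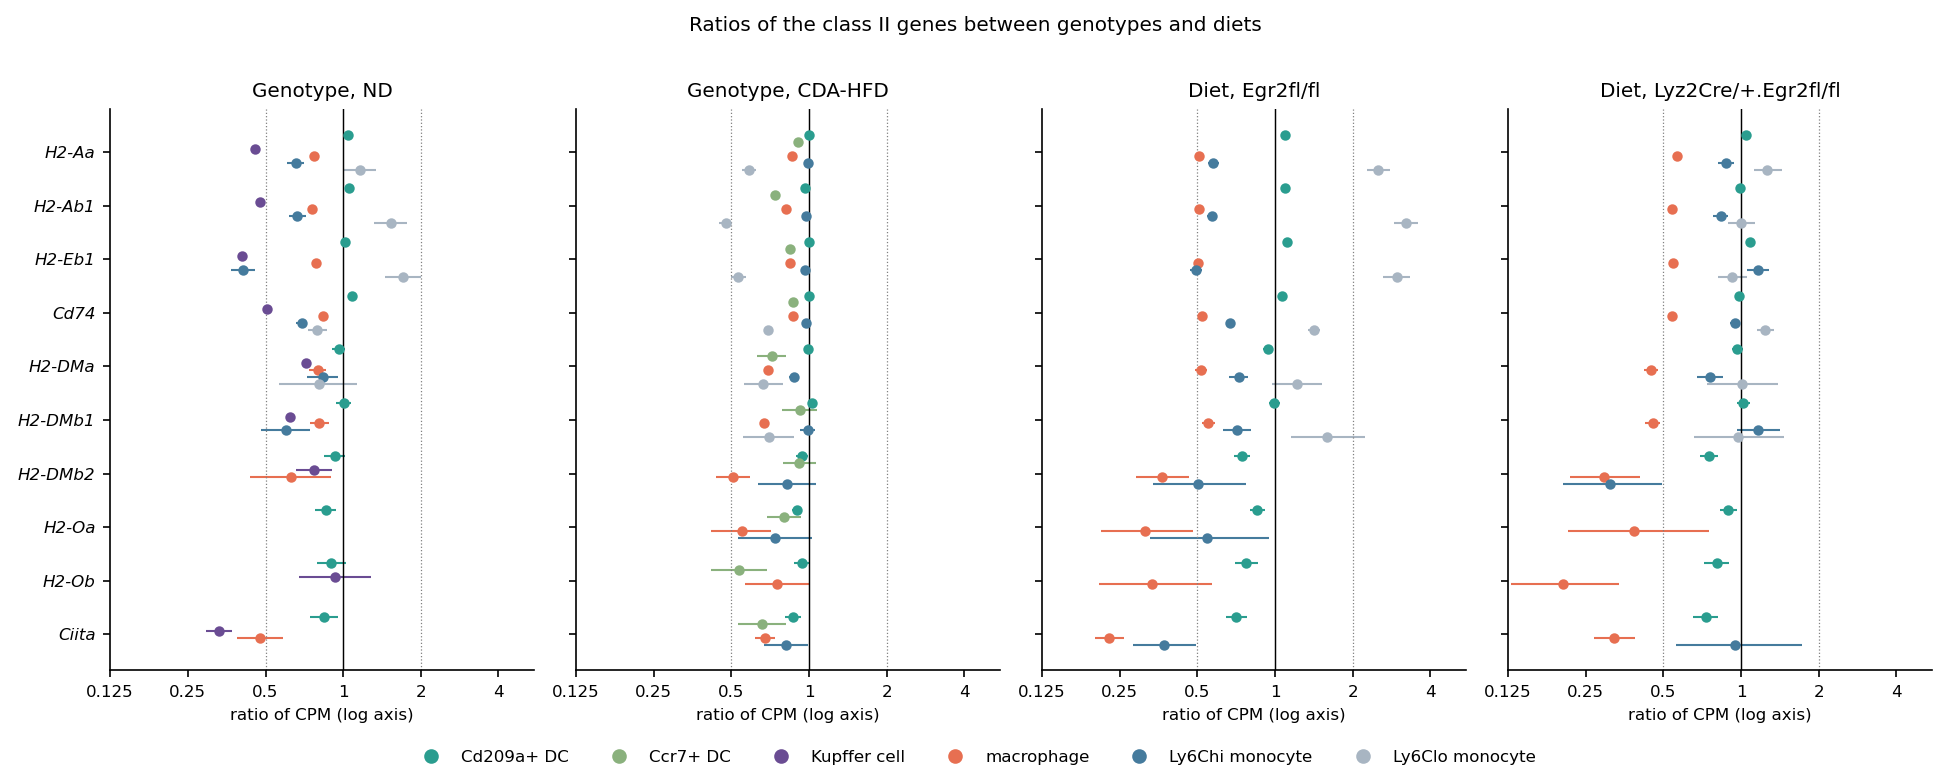
Ratio of CPM (log axis) of each class II gene with at least 100 counts between genotypes (left panels) and diets (right panels), by gate, with 95% counting intervals and dotted lines at 2-fold. On ND the Kupffer cell ratios lie from 0.331 (Ciita) to 0.931 (H2-Ob), and Cd209a+ dendritic cells stay within the lines in all 4 panels.

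In Cd209a+ dendritic cells none of the 10 genes was past 2-fold in any of 4 comparisons. The background was 6.94% of genes for diet in Egr2fl/fl mice, 6.27% for diet in Lyz2Cre/+.Egr2fl/fl mice, 2.97% for genotype on ND and 1.09% for genotype on CDA-HFD. H2-Ab1, H2-Aa, H2-Eb1 and Cd74 had ratios of 0.966 to 1.11 throughout. On CDA-HFD a slight difference was seen in Ciita (ratios 0.707 and 0.730), H2-DMb2 (0.745 and 0.752) and H2-Ob (0.774 and 0.805), which were lower in both genotypes, while H2-DMb1 was not (0.993 and 1.02). Ciita was thus lower in these cells while the chain genes were level. In the costimulation list, 1 of 6 genes was past 2-fold lower and 1 higher with diet in the Egr2fl/fl pair, and 1 of 5 lower and 2 higher in the other. The highest was Cd83, a surface protein of mature dendritic cells that stabilises class II, with 130, 127, 526 and 388 CPM in the 4 mice. The lowest were Cd274 (0.404) in the Egr2fl/fl pair and Cd80 (0.452) in the Lyz2Cre/+.Egr2fl/fl pair. In Ccr7+ dendritic cells, which could be compared on CDA-HFD alone, 0 of 10 genes were past 2-fold between genotypes, where 2.96% of genes were. All 10 ratios were below 1, with a median of 0.822 against 1.01 for all genes, and H2-Ob was the lowest (0.536, 0.417 to 0.685).

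H2-Eb2, a class II beta chain locus outside the set, was seen mainly in Ccr7+ dendritic cells, with 633 and 669 CPM in the CDA-HFD-fed mice against 18.7 and 19.3 CPM in their Cd209a+ dendritic cells. Marchf1, the ligase that takes class II off the surface, was at 8.01 and 8.52 CPM in these Ccr7+ dendritic cells and at 87.3 and 104 CPM in the Cd209a+ dendritic cells. These genes thus differed in opposite directions between the dendritic cell gates in both mice.

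In monocytes class II counts came from few cells. H2-Ab1 had a count in 17.6%, 18.1%, 21.6% and 22.5% of Ly6Chi monocytes, in 15.9%, 9.84%, 20.4% and 13.1% of Ly6Clo monocytes, and in 3.65% to 7.41% of neutrophils. After thinning the shares were 17.8% to 22.3%, 10.2% to 20.8% and 4.21% to 15.4%. These shares cannot be compared between gates of unequal depth even after thinning, because low values of H2-Ab1 were given as 0 before it, and a fixed count is a higher level in a shallow cell. The tenth of Ly6Chi monocytes with the most counts held 92.9%, 92.8%, 85.9% and 81.4% of the H2-Ab1 counts, against 18.4% to 19.6% in Cd209a+ dendritic cells, 25.1% to 30.5% in macrophages and 23.6% and 32.0% in Kupffer cells on ND. Among the Ly6Clo monocytes of the ND-fed Lyz2Cre/+.Egr2fl/fl mouse a single cell held 69.6%. H2-DMa was spread more evenly, with a count in 69.6% to 80.6% of Ly6Chi monocytes. Part of this contrast with H2-Ab1 is set by the file: the lowest value above 0 was 8 for H2-Aa, H2-Ab1 and H2-Eb1, 10 for Cd74 and 1 for the other genes, so low counts of the first 4 were given as 0.

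**Figure D5:**
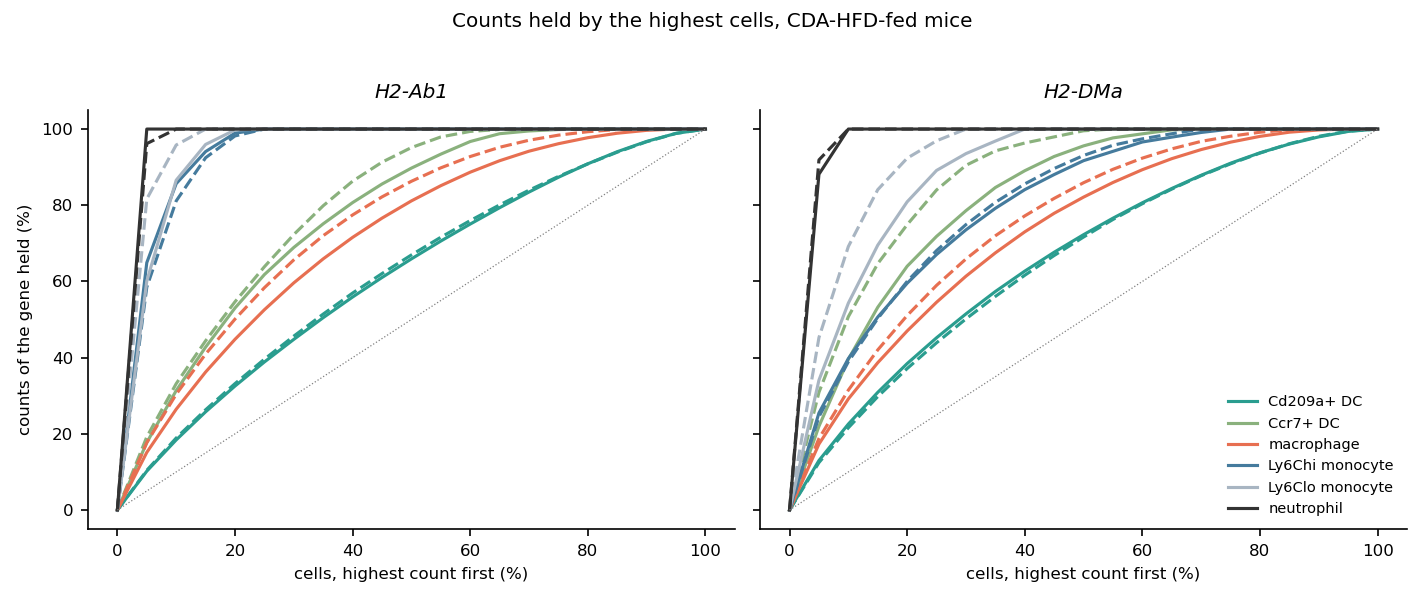
Share of the counts of H2-Ab1 (left) and H2-DMa (right) held by the cells with the most counts (%), for 6 gates of the CDA-HFD-fed mice, solid for Egr2fl/fl and dashed for Lyz2Cre/+.Egr2fl/fl. In Ly6Chi monocytes the top 10% of cells hold 85.7% and 81.1% of the H2-Ab1 counts, in Cd209a+ dendritic cells 18.4% and 18.9%. Here the 10% is exact, while in the text the tenth is rounded up to whole cells.

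In Ly6Chi monocytes 2 of 9 genes were past 2-fold with diet in the Egr2fl/fl pair, both lower (H2-Eb1 0.494, Ciita 0.371), where 10.5% of genes were. With stricter gates the H2-Eb1 ratio turned to 1.14. After thinning, 9 of these cells of the ND-fed Egr2fl/fl mouse had a Ciita count and 98 had none. That share is near the one given above for neutrophils of this mouse, so Ciita was not clearly above background there. Summed dendritic cell markers (18 genes) were at 755, 603, 370 and 363 CPM in this gate, so they were lower on CDA-HFD too, and their part in the result was not tested. In the Lyz2Cre/+.Egr2fl/fl pair 1 of 8 was (H2-DMb2 0.312, from 27 and 117 counts), where 13.7% of genes were. Between genotypes 1 of 6 was on ND (H2-Eb1 0.408), where 3.49% of genes were, and 0 of 9 on CDA-HFD, where 1.09% were. The call on ND was lost with stricter gates, in cells with at least 90% of hashtag counts from their own tag, and with the zeros replaced as described next, and in the ND-fed Lyz2Cre/+.Egr2fl/fl mouse 8 cells held all H2-Eb1 counts, a single one of them 38.5%. T and NK cell markers were at 0 and 92.0 CPM in these 2 groups, and their part in the result was not tested. In Ly6Clo monocytes H2-Aa (2.51), H2-Ab1 (3.23) and H2-Eb1 (2.96) were higher on CDA-HFD in the Egr2fl/fl pair, 3 of 6 genes, where 8.34% of genes were past 2-fold. In the Lyz2Cre/+.Egr2fl/fl pair 0 of 6 were, where 10.1% of genes were. Between genotypes 0 of 5 were past 2-fold on ND, where 2.52% of genes were, and 1 of 6 on CDA-HFD (H2-Ab1 0.475), where 2.02% were. Summed B cell markers (6 genes) were at 162, 33.5, 97.2 and 20.1 CPM in Ly6Clo monocytes and endothelial markers at 293, 48.2, 12.0 and 26.0 CPM, and their part in these results was not tested. With each 0 of the 4 genes with a floor set to the largest value that could have been removed, the ratios in the Egr2fl/fl pair were 1.72 (H2-Ab1), 1.48 (H2-Aa) and 1.47 (H2-Eb1), and the H2-Ab1 ratio between genotypes on CDA-HFD was 0.624, so that none of these 4 calls remained.

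Within a gate, cells with a Ciita count were compared with cells without after thinning. In Ly6Chi monocytes those with Ciita had 4.47, 4.98 and 3.54 times the H2-Ab1 level of those without in the 3 mice with enough cells, from 9, 40 and 35 cells with Ciita. In Ccr7+ dendritic cells the ratio was 2.22 and 2.37 on CDA-HFD, in macrophages 1.26, 1.16, 1.45 and 1.61, and in Kupffer cells on ND 1.13 and 1.41. In Cd209a+ dendritic cells it was 1.03 to 1.08. The ratio was thus nearest to 1 in the cells with the highest class II level. In neutrophils of the CDA-HFD-fed mice it was 16.1 and 12.0, from 11 and 5 cells with Ciita, so the same pattern stood in cells that should lack both genes. The part of free RNA or of joined cells in it was not tested. For H2-DMa the macrophage ratios were 1.14, 1.24, 1.58 and 1.88.

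Across 20 groups of a gate and a mouse with at least 50 cells, the log2 levels of the other genes were set beside the summed level of H2-Ab1, H2-Eb1 and H2-Aa, as a description, since groups share mice and a library. Pearson's r was 0.99 for Cd74, 0.92 for Ciita, 0.88 for H2-DMb1, 0.81 for H2-DMa, 0.78 for H2-DMb2, 0.68 for H2-Ob and 0.63 for H2-Oa. Over the 14 groups without dendritic cells it was 0.95 for H2-DMb1 and 0.85 for Ciita, but -0.11 for H2-Oa and 0.076 for H2-Ob. In these 14 groups H2-Oa was at 1.05 to 64.9 CPM and H2-Ob at 1.05 to 22.3 CPM, and most macrophage groups were read as background above. Their r without dendritic cells therefore cannot show whether the H2-O genes follow the chain genes there. Outside the set the closest genes were Ccnd1 (0.93), Cdk1 (0.91) and Pmepa1 (0.91), and without dendritic cells Fads1, Nampt and Mmp13 (each 0.93), with Ctss at 0.92.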

How the data were processed

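Liver CD45.2+Lin-CD11b+ cells of 4 mice were captured with BD Rhapsody and amplified by TAS-Seq as 1 pooled library. The authors mapped reads to the GRCm38 transcriptome, kept barcodes above the inflection point, split them by hashtag and deposited counts per gene and barcode, in which 28 genes have no value between 0 and 5. Seurat 4.1.1 and R 4.2.1 are in the submitters' processing notes. Neither the use of molecular identifiers in counting nor that of strand is given in the sources used here. A second deposited table holds hashtag counts, of which 7 columns were not used.

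Doublets named by the authors and cells with over 25% mitochondrial counts were left out. Cells were gated on marker counts, and cells in several gates were left out. No doublet caller was run. Counts were summed per gate and mouse and given as CPM with exact Poisson 95% intervals, ratios with exact binomial intervals and shares with Clopper-Pearson intervals, which cover counting error only. Ratios were formed with at least 50 cells of each mouse and 100 counts over both, and called past 2-fold. Shares were also taken after thinning each cell to 4000 counts (seed 1), leaving out shallower cells. With 1 mouse per group no test was run. Only the ratio calls and their intervals were tried on simulated counts, and no outcome is given here. Those counts were drawn with counting error only, so the trial cannot show how the intervals hold for other error. Gating, thinning, shares, the removal of low values and the comparison by Ciita count were not tested on simulated data.

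All 10 class II genes are named. The rule for each pathway list was its counts and the genes with the largest and smallest ratios. It is followed for genotype in Kupffer cells and diet in macrophages, except for an item that is not reported here. Other list genes and comparisons were chosen after their values were seen. The class II genes and lists were chosen with earlier results of these data known. Marker numbers of the gates, the Cd5l and Spp1 split, the promoter letters and 2 alternatives were chosen after seeing the data. Alternatives were stricter gates, the mean of per-cell CPM, purer hashtags, other mitochondrial limits, removal of cells with markers of a further class, other count minimums and folds, and TMM factors (edgeR 4.0.16, R 4.3.3). Python 3.11.15, numpy 2.4.6, scipy 1.17.1, pandas 2.3.3 and matplotlib 3.10.9 were used.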

Additional observations from a re-analysis of the deposited data

Results flagged for a closer look

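In Ly6Chi monocytes the CDA-HFD to ND ratio of H2-Eb1 was 0.494 in the Egr2fl/fl pair and 1.16 in the Lyz2Cre/+.Egr2fl/fl pair, opposite directions in the genotypes. These directions depended on the processing: with stricter gates the ratios were 1.14 and 0.809, and with purer hashtags the second was 0.806. The difference was not tested, with 1 mouse per group, and the ND-fed Lyz2Cre/+.Egr2fl/fl value rests on 454 counts in 72 cells.

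In Ly6Clo monocytes the Lyz2Cre/+.Egr2fl/fl to Egr2fl/fl ratio of H2-Ab1 was 1.53 on ND and 0.475 on CDA-HFD, opposite directions on the diets. Without cells that carried markers of a further class the ND ratio was 0.887, so that both were below 1. This difference was not tested either, and a single cell held 69.6% of the H2-Ab1 counts of the ND-fed Lyz2Cre/+.Egr2fl/fl mouse in this gate.

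Cells in no gate, which entered no comparison, had H2-Ab1 at 8348, 7013, 8395 and 6995 CPM in the 4 mice, above the neutrophils of each mouse.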

How the results depend on the processing

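No paired analysis was possible because each group had 1 mouse. Across 651 recomputed values of 87 class II gene ratios, 38 fell on the other side of 1, and 2 of the ratios past 2-fold reversed, both with stricter gates: H2-Oa for diet in Lyz2Cre/+.Egr2fl/fl macrophages (1.28) and H2-Eb1 for diet in Egr2fl/fl Ly6Chi monocytes (1.14). In Kupffer cells the count of genes past 2-fold stayed within 1.5 times, and H2-Ab1 ranged from 0.460 to 0.486 and Ciita from 0.319 to 0.345. The H2-Ab1 diet ratio in macrophages ranged from 0.467 to 0.573 and from 0.467 to 0.615.

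Other counts of genes past 2-fold moved. The share of all genes past the fold was not computed under any of these alternatives. A count below therefore has no background beside it and is not read as a result about class II genes. For diet in Egr2fl/fl macrophages (4), stricter gates gave 7, purer hashtags 10, removal of cells with markers of a further class 9, a minimum of 500 counts 2 and a fold of 1.5 gave 10. For diet in Lyz2Cre/+.Egr2fl/fl macrophages (6) the minimum of 500 gave 3 and the fold of 1.5 gave 10. For genotype in macrophages on ND (1), stricter gates, no minimum and the lower fold gave 2, and the per-cell mean and the minimum of 500 gave 0. On CDA-HFD (0), purer hashtags and the lower fold gave 2 and TMM 1. In Ccr7+ dendritic cells (0) the lower fold gave 2.

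In Ly6Chi monocytes, diet in Egr2fl/fl mice (2) gave 1 with the per-cell mean, TMM, the minimum of 500 or replaced zeros, 5 without cells with further markers and 6 with the lower fold. Diet in Lyz2Cre/+.Egr2fl/fl mice (1) gave 0 with the minimum of 500 and 3 with none. Genotype on ND (1) gave 0 with stricter gates, purer hashtags or replaced zeros, 5 without cells with further markers, and 4 with no minimum or the lower fold. In Ly6Clo monocytes, diet in Egr2fl/fl mice (3) gave 0 with replaced zeros. Diet in Lyz2Cre/+.Egr2fl/fl mice (0) gave 1 with the per-cell mean, 4 without cells with further markers and 3 with no minimum. Genotype on ND (0) gave 1 with the per-cell mean, without cells with further markers or with no minimum, and 2 with the lower fold. Genotype on CDA-HFD (1) gave 0 with stricter gates, the per-cell mean, replaced zeros or without cells with further markers, 3 with purer hashtags, 2 with no minimum and 4 with the lower fold. The cause of these moves was not tested. The Ciita share of Kupffer cells went to 19.0% and 7.17% after thinning and to 12.3% and 2.53% at 5 counts or more. Stricter gates and purer hashtags were not run where they left under 50 Ly6Clo monocytes (47 and 43 cells of the ND-fed Lyz2Cre/+.Egr2fl/fl mouse).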
